A study of Mus musculus with 6 samples.

Results

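The genes described here are 33 genes of glycolysis and of the response to low oxygen, followed in mouse fibroblasts whose genome carries inserted lac operator arrays. They were found by symbol in the platform annotation of the arrays, taking a probe set only where it names 1 gene. Of the 33, 30 had such a probe set, out of 18194 genes named in this way on the arrays. The 33 fall into 15 glycolytic enzymes and 18 other hypoxia response genes, the latter comprising 2 transporters, 2 regulators of glycolytic flux, 4 oxygen-sensing genes and 10 further targets of hypoxia-inducible factor (HIF). Gene expression had been measured in NIH3T3 cells, an immortalised mouse fibroblast line, on 6 Affymetrix arrays hybridised with biotin-labelled RNA. All 6 samples came from clone M, a single clone with multiple lacO insertions, so the values speak for 1 clone. In 3 samples, called tethered, the insertion lay at the nuclear periphery. In the other 3, called untethered, it lay in the interior of the nucleus. The labels used here name neither the protein that tethers the insertion nor the agent that releases it. Both groups were grown to about 80% confluency in medium with 10% serum, and the oxygen level is not given. The labels do not say that the arrays of a group came from separate cultures, so p-values measure the spread between these samples, which may be technical.

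Glycolysis breaks glucose down to pyruvate in the cytosol and yields ATP without oxygen, and lactate dehydrogenase turns pyruvate into lactate. HIF is a transcription factor whose alpha subunit is hydroxylated by oxygen-dependent prolyl hydroxylases, bound by the von Hippel-Lindau protein and degraded. When oxygen is short the alpha subunit persists, pairs with ARNT and activates genes through DNA sites with the core ACGTG or GCGTG. Its targets include most glycolytic enzymes, the glucose transporter Slc2a1 and genes of mitophagy, matrix hydroxylation and vessel tone.

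The values are log2 intensities of the brightest probe set of each gene, with intensities below 16 set to 16. Log2 fold changes give the tethered mean less the untethered mean. A probe set was tested if its mean log2 intensity exceeded 8.93, the median of all probe sets, which left 28 of the 33 genes. Ankrd37 had a probe set below that mean, Gapdh was carried only by the arrays' control probe sets, and Gpi1, Eno1 and Bnip3l had no probe set naming them alone. Array medians lay between 482.4 and 490.9 on the linear scale, and correlations between arrays ran from 0.92 to 0.991. All 10 fibroblast markers with a probe set lay above the median signal, as did 7 of the 19 markers of macrophages, endothelium, epithelium and adipocytes. The mean log2 signal of the fibroblast markers ran from 12.26 to 12.85 in tethered and from 12.66 to 12.94 in untethered arrays. That of the 4 other marker lists lay between 8.01 and 8.74 in every array. The RNA controls differed between arrays. The 5' log2 signal less the 3' log2 signal of the transferrin receptor control, which drops as RNA is degraded or copied incompletely, was -2.09, -1.67 and -1.55 in tethered replicates 1, 2 and 3 and -2.81, -3.07 and -1.52 in untethered replicates 1, 2 and 3.

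Most of the 28 tested genes had a lower mean in tethered than in untethered cells, and no difference passed the test across all probe sets. Values below 0 were found for 10 of 12 glycolytic enzymes, with a median log2 fold change of -0.13, and for 14 of 16 other hypoxia response genes, with a median of -0.27. Over all 11846 genes tested, 58.8% had a value below 0 and the median was -0.02. Limma, with Benjamini-Hochberg adjustment over 22517 probe sets, called 0 of them (0%), and the smallest adjusted p was 0.9994. At an unadjusted p under 0.05 it gave 536 probe sets (2.38%), and a test without moderation gave 887 at that level and 0 after adjustment. The 536 became 1488 without tethered replicate 1, 797 without untethered replicate 1 and 932 without untethered replicate 3, and 237 and 256 without tethered or untethered replicate 2. With the replicate number as a block it was 1231. On the brightest probe sets, Hk1 was the 1 member under that level, where 1.77% of all genes tested were both under it and lower in tethered cells. In 3 of the 28 genes, all of them enzymes, every tethered array lay below every untethered array, beside 4.1% of all genes tested. Without untethered replicate 1 the values below 0 numbered 11 of 12 enzymes and 11 of 16 other genes. With both arrays numbered 1 left out they numbered 8 of 12 and 12 of 16. The median over all probe sets tested was -0.035 and -0.027 in these settings, against -0.016 with all arrays.

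**Figure D1:**
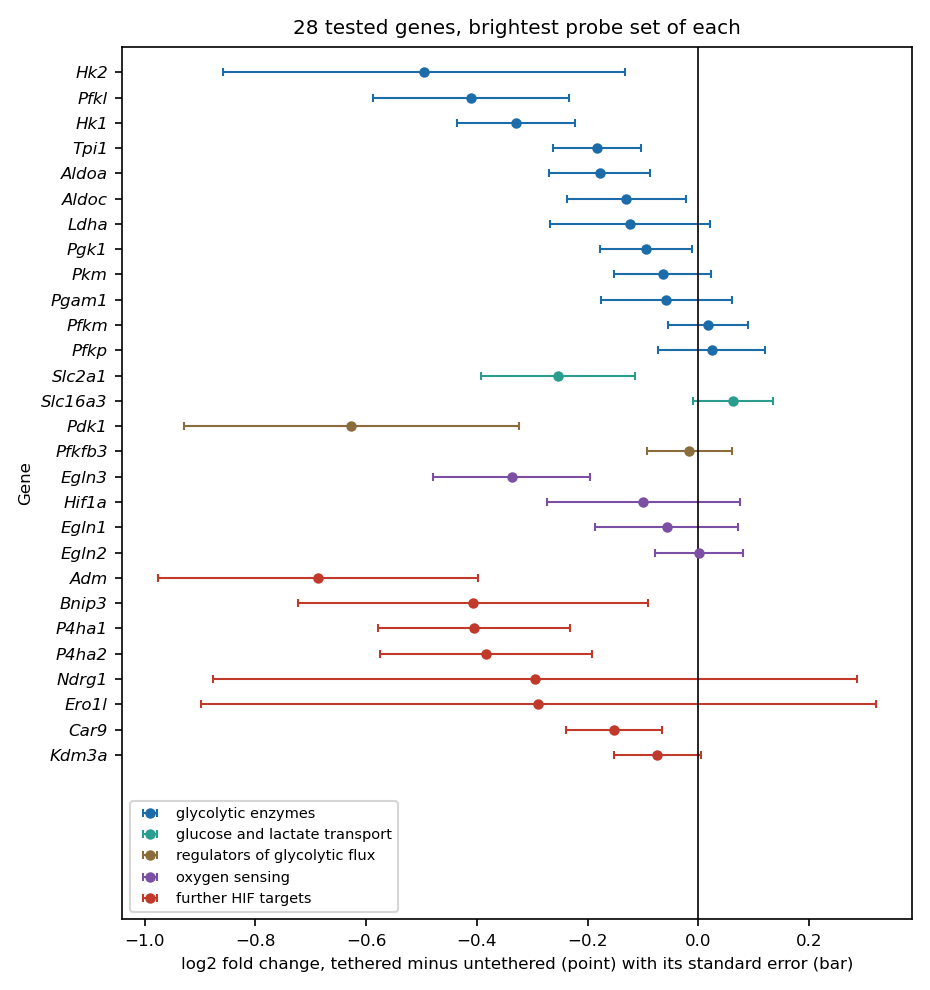
Log2 fold change (horizontal axis, tethered minus untethered) of the 28 tested genes, 1 row per gene, grouped and coloured by role; points are the differences of group means over 3 arrays each and bars are limma's standard errors. Most points lie left of 0, from -0.69 for Adm to 0.06 for Slc16a3, and the widest bars belong to Ndrg1 and Ero1l.

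In RNA pooled over a culture, fewer cells expressing a gene and less RNA per cell cannot be told apart. Glucose enters fibroblasts through Slc2a1 (GLUT1), and lactate can leave through Slc16a3 (MCT4). Slc2a1 stood at 12.20, 12.08 and 12.46 in tethered replicates 1, 2 and 3 and at 12.56, 12.66 and 12.29 in untethered replicates 1, 2 and 3. Untethered replicates 1 and 2 were the highest arrays, while untethered replicate 3 lay below tethered replicate 3, so the groups overlapped. The log2 fold change of Slc2a1 was -0.25 (SE 0.14), and its other 2 probe sets gave -0.10 and -0.21. Slc16a3 stood at 9.11, 9.12 and 9.01 in tethered and at 9.10, 8.95 and 9.01 in untethered cells, for a log2 fold change of 0.06 (SE 0.072) with overlapping groups.

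Among the enzymes, Hk2, Pfkl and Hk1, which act at early and regulated steps, had the largest differences. Hk1, a hexokinase that phosphorylates incoming glucose, stood at 11.08, 11.21 and 11.30 in tethered and at 11.51, 11.69 and 11.37 in untethered replicates 1, 2 and 3. The groups did not overlap, and the log2 fold change was -0.33 (SE 0.11; limma, unadjusted p = 0.021, adjusted p = 0.9994). The other Hk1 probe set gave -0.22 with overlapping groups. Hk2, the hypoxia-inducible hexokinase, stood at 11.27, 10.18 and 10.46 in tethered and at 11.48, 11.37 and 10.55 in untethered cells. Its 3 highest arrays were tethered replicate 1 and untethered replicates 1 and 2, and the log2 fold change of -0.50 had an SE of 0.36. It was -0.27 without tethered replicate 2 and -0.81 without tethered replicate 1.

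Phosphofructokinase commits the sugar to glycolysis, and its 3 isoform genes differed in the size of their values. Pfkl, the liver-type isoform, stood at 11.58, 11.50 and 11.80 in tethered and at 12.32, 12.10 and 11.68 in untethered cells, for a log2 fold change of -0.41 (SE 0.18), which was -0.27 without untethered replicate 1. Untethered replicates 1 and 2 lay above all tethered arrays and untethered replicate 3 did not. A second Pfkl probe set gave -0.36 and the dimmest 0.02. Pfkp, the platelet type, and Pfkm, the muscle type, each stood at 0.02 (SE 0.096 and 0.072), and all their values lay within 0.29 and 0.16 of each other.

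Aldolase splits the hexose and triosephosphate isomerase interconverts the products. Aldoa stood at 13.32, 13.37 and 13.31 in tethered and at 13.68, 13.48 and 13.37 in untethered cells. The groups did not overlap, although tethered replicate 2 and untethered replicate 3 were nearly level, and the log2 fold change was -0.18 (SE 0.092). Of the 5 Aldoa probe sets, 4 gave values from -0.18 to -0.17 and the fifth -0.01. Tpi1 stood at 13.03, 13.20 and 13.26 in tethered and at 13.35, 13.33 and 13.35 in untethered cells, with no overlap and a log2 fold change of -0.18 (SE 0.080). Its other 2 probe sets gave -0.16 and -0.28. Aldoc, the brain-type aldolase, gave -0.13 (SE 0.11) at a mean log2 intensity of 8.98, just above the limit for testing.

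The enzymes of the payoff phase had small differences and the lowest value in the same array. Pgk1, phosphoglycerate kinase and the tested enzyme with the strongest signal, stood at 13.83, 14.02 and 14.05 in tethered and at 14.12, 14.04 and 14.03 in untethered cells, for a log2 fold change of -0.09 (SE 0.083). Apart from tethered replicate 1, the 5 arrays lay close together and the groups overlapped. The mutase Pgam1 gave -0.06 (SE 0.12), pyruvate kinase Pkm -0.06 (SE 0.087) and lactate dehydrogenase Ldha -0.12 (SE 0.14). Ldha stood at 13.50 in tethered replicate 1 and between 13.92 and 14.01 in the other 5 arrays. Of the 12 tested enzymes, 6 had their lowest value in tethered replicate 1, namely Hk1, Tpi1, Pgk1, Pgam1, Pkm and Ldha, beside 23.2% of all genes tested. Without that array Ldha, Pkm and Pgam1 gave values above 0, at 0.04, 0.01 and 0.04. Gapdh, read from the 5' control probe set and not tested, was also lowest in tethered replicate 1, at 14.20, with 14.45 and 14.46 in the other tethered arrays and 14.33, 14.27 and 14.47 in the untethered ones. These strong signals lay close to the highest log2 intensity on the arrays, 14.85, and whether differences are compressed there was not tested.

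**Figure D2:**
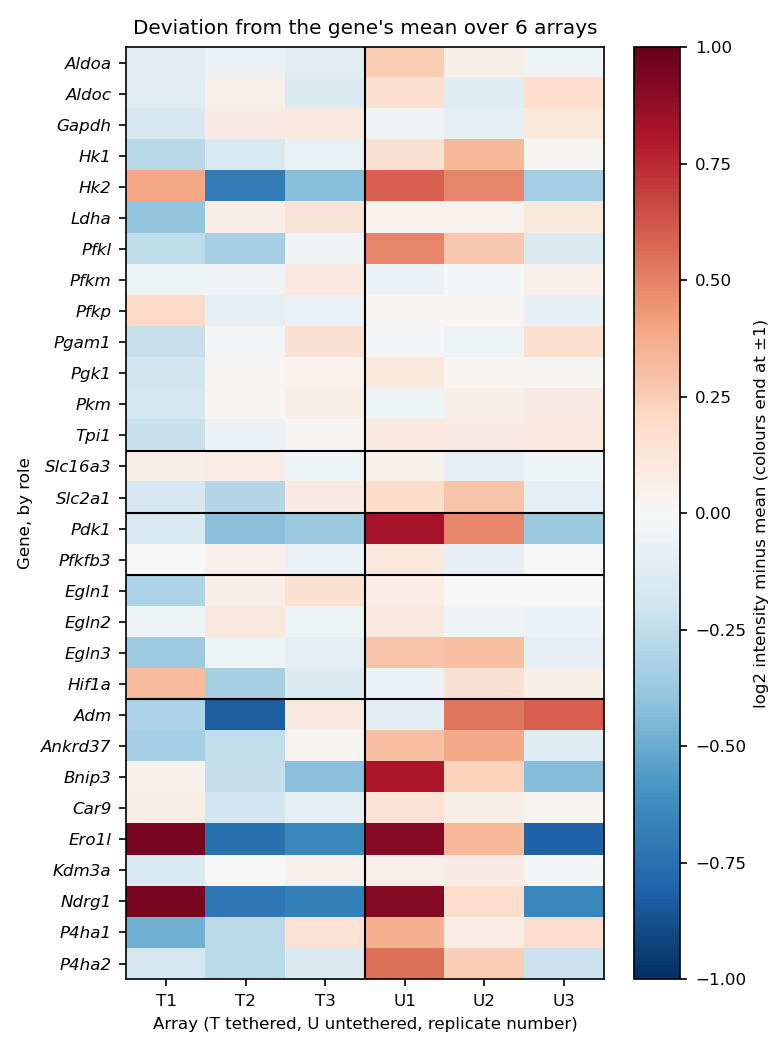
Deviation of each of the 30 genes with a probe set (rows, by role from enzymes at the top to HIF targets at the bottom) from its own mean over the 6 arrays, in log2 units by colour; columns are tethered (T) and untethered (U) replicates 1 to 3. Ndrg1, Ero1l and Hk2 are red in T1, U1 and U2, Pdk1, Bnip3 and P4ha2 are reddest in U1 and U2, and most enzymes are pale blue in T1.

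The flux regulators differed from each other. Pdk1, pyruvate dehydrogenase kinase, keeps pyruvate out of the mitochondria and is a HIF target. It stood at 10.26, 10.00 and 10.04 in tethered and at 11.24, 10.90 and 10.04 in untethered cells. Untethered replicates 1 and 2 stood above the other 4 arrays, which lay between 10.00 and 10.26. The log2 fold change was -0.63 (SE 0.30), and the second tested probe set gave -0.33. Without untethered replicate 1 the first value was -0.37, and without untethered replicate 3 it was -0.97. Pfkfb3, whose product makes a sugar bisphosphate that activates phosphofructokinase, stood at 9.90, 9.95 and 9.83 in tethered and at 10.01, 9.82 and 9.90 in untethered cells, for a log2 fold change of -0.02 (SE 0.076).

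The oxygen-sensing genes were represented by Hif1a, the regulated HIF subunit, and by the 3 prolyl hydroxylases that mark it for degradation. Hif1a stood at 12.79, 12.14 and 12.33 in tethered and at 12.41, 12.62 and 12.53 in untethered cells, so its highest and lowest arrays were both tethered. Its log2 fold change was -0.10 (SE 0.17) on this probe set. Egln3, itself induced by HIF, stood at 8.76, 9.06 and 9.03 in tethered and at 9.41, 9.42 and 9.04 in untethered cells. Untethered replicate 3 lay level with tethered replicates 2 and 3, and the log2 fold change was -0.34 (SE 0.14). A dimmer Egln3 probe set, below the limit for testing, gave -0.46 with groups that did not overlap. Egln1, another HIF-induced hydroxylase, stood at 11.01, 11.39 and 11.47 in tethered and at 11.40, 11.33 and 11.32 in untethered cells, for a log2 fold change of -0.06 (SE 0.13) that was 0.08 without tethered replicate 1. Its other probe set gave -0.43. Egln2 gave 0.00 (SE 0.080), with all 6 arrays within 0.16.

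Promoter sequences were examined for the HIF core, because several HIF targets were high or low in the same arrays. RefSeq windows of 300 bases (250 before to 50 after a gene's start, build GRCm38.p6) were found for 31 of the 33 genes, and none for Ndrg1 and Bnip3l. ACGTG or GCGTG, read on both strands, occurred in 38 of 47 windows of these genes (80.9%), in 60.2% of the windows of genes tested on the arrays and in 43.8% of all windows. At least 1 window held it in 29 of the 31 genes, all but Gpi1 and Tpi1. The E-box CACGTG, which contains ACGTG on both strands and binds other factors too, occurred in 6 of the 47 windows (12.8%), in 9.8% of the windows of genes tested and in 7.2% of all windows. A match is no evidence that HIF binds there. The 250 bases upstream of the start are shown for Bnip3, Ero1l and Hk2, whose values spread widely over the arrays, and for Pgk1, whose values did not. They run 5' to 3' on the gene's strand, and capitals mark ACGTG or GCGTG, or their complements CACGT or CACGC.
Bnip3 (chr7:138909507-138909756, minus strand): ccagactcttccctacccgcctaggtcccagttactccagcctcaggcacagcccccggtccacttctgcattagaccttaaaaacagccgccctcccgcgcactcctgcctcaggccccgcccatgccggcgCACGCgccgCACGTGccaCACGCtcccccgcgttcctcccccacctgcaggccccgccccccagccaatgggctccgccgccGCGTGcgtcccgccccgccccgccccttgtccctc
Ero1l (chr14:45318573-45318822, minus strand): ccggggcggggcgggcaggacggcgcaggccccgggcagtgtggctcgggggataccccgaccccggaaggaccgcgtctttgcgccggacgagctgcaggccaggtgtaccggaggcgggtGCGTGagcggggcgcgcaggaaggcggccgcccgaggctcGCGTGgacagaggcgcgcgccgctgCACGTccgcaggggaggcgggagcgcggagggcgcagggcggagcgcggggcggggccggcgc
Hk2 (chr6:82774455-82774704, minus strand): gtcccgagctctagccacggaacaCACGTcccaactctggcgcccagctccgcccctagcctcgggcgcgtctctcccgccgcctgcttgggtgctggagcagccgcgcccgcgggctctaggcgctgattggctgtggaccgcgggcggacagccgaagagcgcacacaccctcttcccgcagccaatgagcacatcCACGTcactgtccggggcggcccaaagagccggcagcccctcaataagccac
Pgk1 (chrX:106186850-106187099, plus strand): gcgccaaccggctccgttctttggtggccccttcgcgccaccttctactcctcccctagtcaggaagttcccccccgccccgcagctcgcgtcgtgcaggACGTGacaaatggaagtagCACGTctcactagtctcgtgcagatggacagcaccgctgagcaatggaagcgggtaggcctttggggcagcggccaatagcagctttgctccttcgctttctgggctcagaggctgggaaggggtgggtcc
Bnip3 held 5 matches, of which a pair overlap in a CACGTG, Ero1l held 3, and Hk2 and Pgk1 held 2 each. Of the widely varying genes shown, Hk2 thus carried as many cores as the nearly level Pgk1, and Bnip3 and Ero1l carried more. Members not shown went both ways, counted in the 300-base window with the most matches. Egln2 held 6 and Kdm3a 1, at ranges over the arrays of 0.16 and 0.24. Adm held 2 and P4ha2 4, at ranges of 1.42 and 0.82. Whether the number of cores goes with the spread over the arrays was not tested.

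All 8 tested members among the further HIF targets had values below 0, with a median of -0.34, although Ndrg1 (0.09) and Ero1l (0.09) stood above 0 without untethered replicate 1. Adm encodes adrenomedullin, a vasodilator peptide, and had the largest difference. It stood at 10.17, 9.65 and 10.57 in tethered and at 10.37, 11.01 and 11.07 in untethered cells, with tethered replicate 3 above untethered replicate 1. The log2 fold change was -0.69 (SE 0.29), and the other probe set gave -0.68. Without tethered replicate 2 the first value was -0.45. P4ha1 and P4ha2 encode catalytic subunits of collagen prolyl 4-hydroxylase. P4ha1 stood at 10.69, 10.91 and 11.32 in tethered and at 11.53, 11.25 and 11.36 in untethered cells, for a log2 fold change of -0.41 (SE 0.17), which was -0.26 without tethered replicate 1. Tethered replicate 3 lay among the untethered arrays. P4ha2 stood at 11.06, 10.96 and 11.09 in tethered and at 11.77, 11.47 and 11.01 in untethered cells, for a log2 fold change of -0.38 (SE 0.19). Without untethered replicate 1 that value was -0.21, and without untethered replicate 3 it was -0.59. As for Pdk1, only untethered replicates 1 and 2 stood out. Car9, a carbonic anhydrase, gave -0.15 (SE 0.087), and Kdm3a, a histone demethylase, -0.07 (SE 0.078). Ankrd37, an ankyrin-repeat gene below the limit for testing, stood at 7.83, 7.93 and 8.20 in tethered and at 8.47, 8.55 and 8.06 in untethered cells.

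Ero1l and Ndrg1 had the widest ranges of the 28 genes but SEs larger than their differences. These 2 and Bnip3 were singled out after their values had been seen. Ero1l, an oxidase of the endoplasmic reticulum, stood at 12.47, 10.77 and 10.87 in tethered and at 12.42, 11.85 and 10.70 in untethered replicates 1, 2 and 3. Its highest array was 3.39 times its lowest, yet the 2 arrays numbered 1 were nearly level, and the log2 fold change was -0.29 (SE 0.61). Ndrg1, a stress-induced gene, had the same profile, at 12.96, 11.29 and 11.34 in tethered and at 12.93, 12.19 and 11.36 in untethered cells. Its highest array was 3.17 times its lowest and the log2 fold change was -0.29 (SE 0.58). Bnip3, a mitophagy receptor, stood at 11.89, 11.61 and 11.43 in tethered and at 12.66, 12.07 and 11.41 in untethered cells, for a log2 fold change of -0.41 (SE 0.32). That value was -0.10 without untethered replicate 1 and -0.72 without untethered replicate 3. The range over the 6 arrays exceeded 1 on the log2 scale in 6 of the 28 genes, namely Hk2, Pdk1, Bnip3, Ndrg1, Adm and Ero1l, beside 5.47% of all genes tested. The median range was 0.34 for the enzymes, 0.66 for the other hypoxia response genes and 0.33 for all genes tested. Between the arrays numbered 3, Ndrg1, Bnip3, Pdk1 and P4ha2 differed by less than 0.1. In tethered and untethered replicate 3, Hk2 stood at 10.46 and 10.55, Ero1l at 10.87 and 10.70 and Adm at 10.57 and 11.07.

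**Figure D3:**
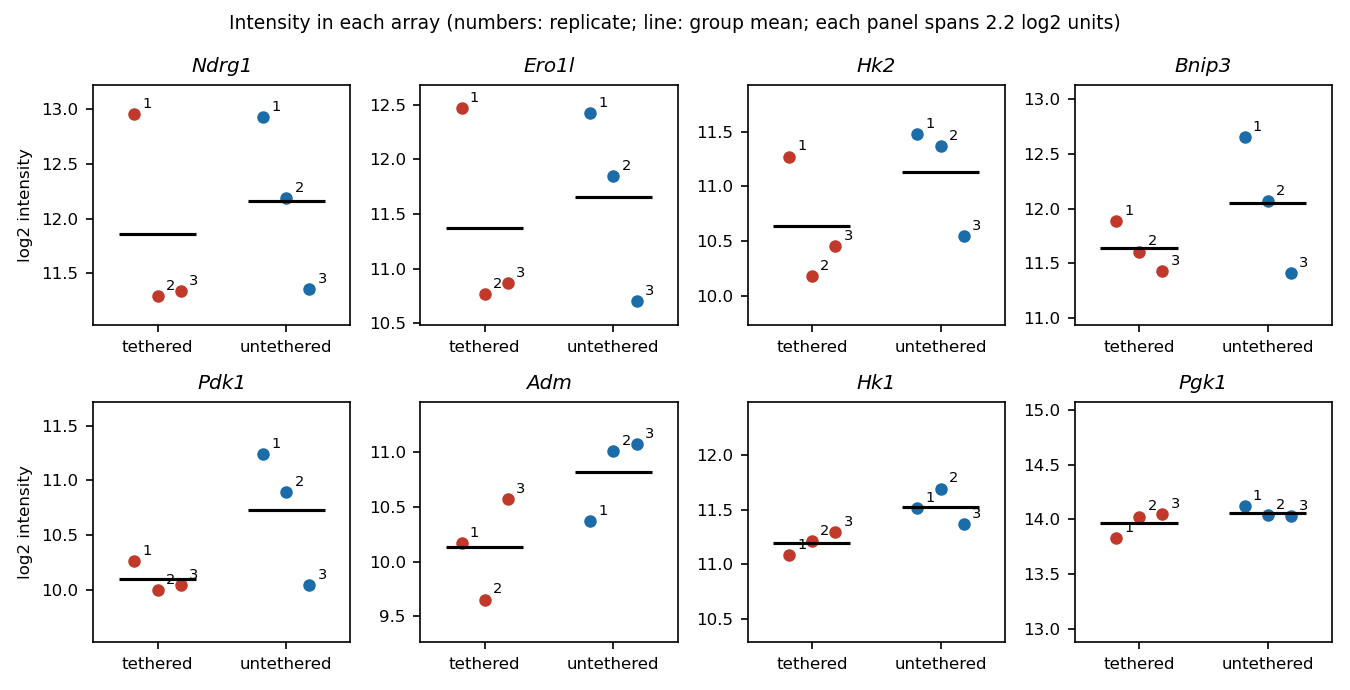
Log2 intensity (vertical axes, all of the same span) of 8 genes in the tethered (red) and untethered (blue) arrays, with the replicate number beside each point and a line at the group mean. Ndrg1, Ero1l and Hk2 are high in tethered replicate 1 and in untethered replicates 1 and 2, Pdk1 in the last pair alone, and Pgk1 is nearly level.

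On average the HIF targets were high in 3 arrays. In these arrays the transferrin receptor control had its lowest 5' signal relative to its 3' signal. The mean deviation of the 8 HIF targets from their 6-array means was 0.11, -0.41 and -0.21 in tethered and 0.45, 0.22 and -0.17 in untethered replicates 1, 2 and 3. Tethered replicate 1 and untethered replicates 1 and 2, the 3 arrays with values above 0, had control signals of -2.09, -2.81 and -3.07, against -1.67 to -1.52 in the others. The same 3 arrays had the lowest actin 5' minus 3' signals, at -0.29, -0.31 and -0.56, against -0.15 to -0.10. Tethered replicate 1 was less clearly set apart: its transferrin receptor value of -2.09 lay nearer to -1.67 than to -2.81. For 18S rRNA the arrays read 10.94, 10.48 and 10.79 in tethered and 12.06, 12.16 and 11.15 in untethered replicates 1, 2 and 3. There only untethered replicates 1 and 2 stood out, and tethered replicate 1 did not. The Gapdh control's 5' minus 3' signal was instead highest in tethered replicate 1. It was 0.10, 0.09 and 0.08 in tethered and 0.04, -0.06 and 0.08 in untethered replicates 1, 2 and 3. The transferrin receptor 3' signal alone was 10.97, 11.60 and 11.69 in tethered and 10.67, 10.53 and 11.61 in untethered cells. In tethered replicate 1 the HIF target mean of 0.11 joined genes above and below their own 6-array means. Ndrg1 (12.96, mean 12.01) and Ero1l (12.47, mean 11.51) lay far above. Below were P4ha1 (10.69, mean 11.18), Adm (10.17, mean 10.47), P4ha2 (11.06, mean 11.23) and Kdm3a (11.16, mean 11.31). For the 12 enzymes the mean deviation was -0.12, -0.11 and -0.03 in tethered and 0.15, 0.10 and 0.01 in untethered cells. Tethered replicate 1 was the lowest. The 10 fibroblast markers were also lowest in tethered replicate 1, with mean deviations of -0.48, 0.10 and 0.09 in tethered and -0.09, 0.19 and 0.19 in untethered cells. All 10 had log2 fold changes below 0, with a median of -0.125 beside -0.127 for the enzymes, and their part in the enzymes' values was not tested. With the 3 arrays of lowest control signal left out, 2 tethered and 1 untethered arrays remained. This setting was added after seeing the data. The arrays left out were the same 3 in which the HIF targets averaged above 0, so it cannot tell RNA quality from that choice. The median was then -0.04 for the enzymes and 0.0002 for the other hypoxia response genes, with 11 of 12 and 8 of 16 values below 0. Over all probe sets tested the median in this setting was -0.036, so the enzymes lay near that level. The part of RNA quality in these differences was not tested. The median of the other hypoxia response genes was also more than 1.5 times smaller without tethered replicate 2 (-0.10), tethered replicate 3 (-0.14) or untethered replicate 1 (-0.11).

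**Figure D4:**
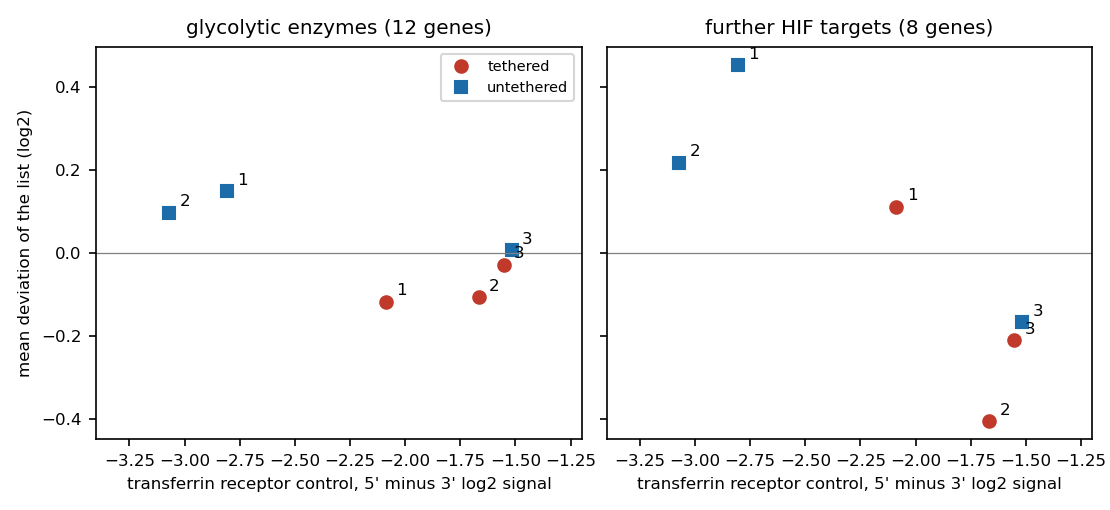
Mean deviation of 2 gene lists (vertical axis, log2) against the transferrin receptor control's 5' minus 3' log2 signal (horizontal axis), 1 point per array, circles for tethered and squares for untethered, numbered by replicate. For the HIF targets the 3 arrays below -2 on the horizontal axis lie above 0 and the other 3 below 0, and for the enzymes tethered replicate 1 lies below 0.

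Probe sets of 1 gene parted most in untethered replicate 2. Among the 14 genes with 2 or more tested probe sets, the deviations of a gene's probe sets from their own means were farthest apart in that array for 8, as they were for 37.5% of 4690 such genes on the arrays. For Hif1a they lay 1.20 apart there, and a probe set that was 10.06 in untethered replicate 2 and 10.97 to 11.68 elsewhere gave a log2 fold change of 0.52, opposite in sign to the brightest. They lay 0.81 apart for Ero1l, 0.77 for P4ha1 and 0.73 for Ndrg1. The tested probe sets differed in sign in 5 of the 14 genes, these 4 and Pfkl. The second P4ha1 probe set gave 0.16, the other Ero1l probe sets 0.14 and 0.09, and the other Ndrg1 probe sets ran from -0.45 to 0.04. Which part of the transcript each probe set reads was not analysed here. With the mean of a gene's tested probe sets in place of the brightest, the median of the other hypoxia response genes was -0.17 and that of the enzymes stayed at -0.13.

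**Figure D5:**
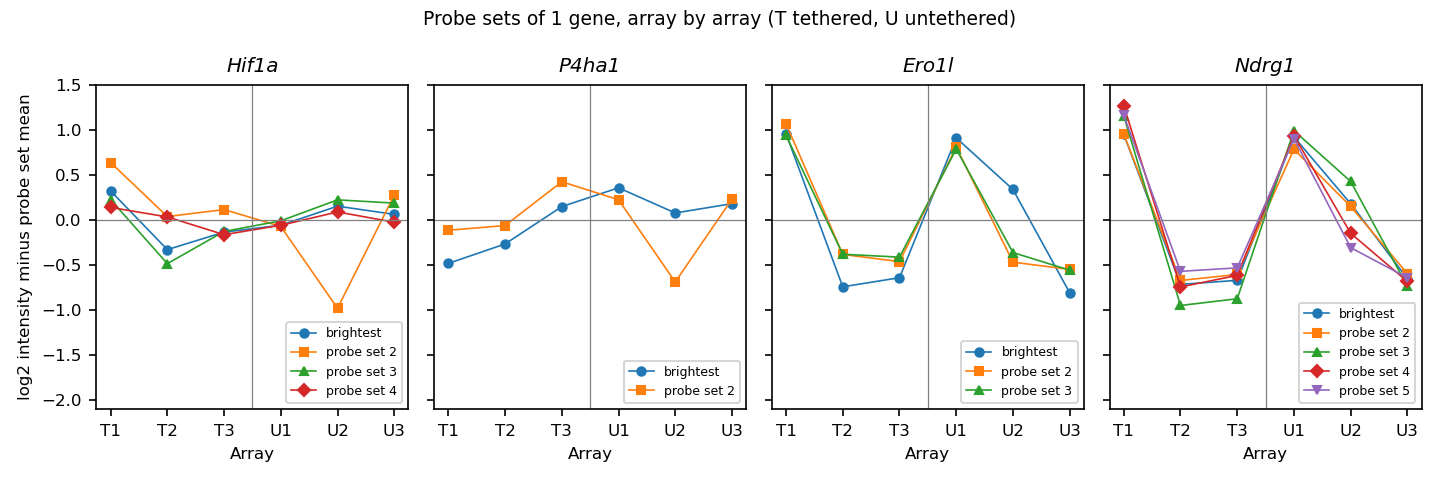
Log2 intensity minus the probe set's own mean (vertical axis) in each array (horizontal axis, T tethered and U untethered) for every tested probe set of Hif1a, P4ha1, Ero1l and Ndrg1. The lines of a gene lie farthest apart in U2, by 1.20 for Hif1a. Those of Hif1a lie 0.06 apart in U1 and 0.28 to 0.52 apart in the other arrays.

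A pair of further lists gave the rest of the pathway. Of 43 further genes of glycolysis and pyruvate metabolism, 32 were tested, 22 had values below 0, 0 passed the adjusted test and the median was -0.05. The smallest unadjusted p-values belonged to Gbe1, the glycogen branching enzyme (-0.19, SE 0.079), Pdha1, a pyruvate dehydrogenase subunit (-0.17, SE 0.084), and Pgm1, a phosphoglucomutase (-0.20, SE 0.10). Of 45 further genes of the HIF pathway, 38 were tested, 27 had values below 0, 0 passed and the median was -0.08. Plod1, a lysyl hydroxylase (-0.30, SE 0.11), Ep300, a HIF co-activator (-0.33, SE 0.12), and Hilpda, a lipid droplet protein (-0.30, SE 0.12), had the smallest p-values. Eno2, the neuronal enolase, was named after its values had been seen. It stood at 10.38, 8.43 and 8.64 in tethered and at 10.89, 10.57 and 9.12 in untethered cells, which is the array profile of Ndrg1, Ero1l and Hk2, with a log2 fold change of -1.04 (SE 0.67). Vegfa, the vascular growth factor, likewise chosen afterwards, stood at 11.82, 10.65 and 10.49 in tethered and at 11.62, 11.55 and 10.48 in untethered cells. The lists did not share this profile as a whole. Angptl4, Tfrc, Ak4 and Eno3, also chosen afterwards, were lowest in the arrays numbered 1. Angptl4 stood at 9.04, 10.77 and 11.14 in tethered and at 9.21, 9.86 and 10.56 in untethered cells.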

How the data were processed

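The authors deposited a linear intensity for each probe set of each array. Per the labels, RNA was labelled with biotin and hybridised by the standard Affymetrix procedure; the probe summary, scaling and software were not given in the sources used here. Gene names came from the platform annotation and were updated by gene identifier to RefSeq (GRCm38.p6), which held 99.4% of them. The 64 control probe sets were not tested. Intensities were set to at least 16 and log2 was taken. Probe sets with a mean above the median of all 45101 were compared between the groups with limma 3.58.1 (R 4.3.3), without covariates, two-sided, with Benjamini-Hochberg adjustment called under 0.05. The procedure was tested on simulated data with independent noise in each probe set and array. Variation that many probe sets share within an array was thus not covered. No detection calls were used, and precision is limited by the small number of arrays.

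Every member was accounted for. Values in every array were given, within each role, for the tested members with the smallest p (up to 3, or 5 among enzymes), for Pgk1, Hif1a and Slc2a1, and for genes said to be chosen afterwards. Of the pathway genes outside the members, the 3 per list with the smallest p were named, beside those said to be chosen afterwards. The members and lists were chosen with earlier results of these data known. Alternatives covered the floor, scaling, filter, moderation, replicate number, probe set choice and left-out arrays.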

Additional observations from a re-analysis of the deposited data

How the results depend on the processing

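No probe set was called under any of the alternatives tried, where the smallest adjusted p lay between 0.4132 and 1. A floor of 1 or 64, quantile normalization, centring on array medians, no filter, no moderation and the replicate block left all 28 genes on the same side of 0, except Pfkfb3 after quantile normalization (0.003). When a gene's probe sets were averaged, Hif1a stood at 0.041. The replicate block left the medians at -0.13 and -0.27 and called 0 probe sets (smallest adjusted p = 0.74). Deviations from the group means of same-numbered arrays correlated at 0.71, 0.075 and 0.711 for numbers 1, 2 and 3. Those of differently numbered arrays correlated at -0.769 to 0.365, so the values for numbers 1 and 3 were the highest. The labels state no pairing, and the main fit therefore had no block.

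With 1 array left out, the median ran from -0.19 to -0.09 for the enzymes and from -0.39 to -0.10 for the other hypoxia response genes, and for the further lists from -0.10 to 0.004 (glycolysis) and from -0.13 to -0.03 (HIF). Genes whose value changed sign then ran from -0.066 to 0.079 (Pfkp), -0.029 to 0.046 (Pfkm), -0.148 to 0.042 (Pgam1), -0.112 to 0.008 (Pkm), -0.219 to 0.037 (Ldha), -0.062 to 0.033 (Pfkfb3), -0.148 to 0.082 (Egln1), -0.047 to 0.051 (Egln2), -0.284 to 0.042 (Hif1a), -0.842 to 0.091 (Ndrg1) and -0.838 to 0.093 (Ero1l). Values that kept their sign but moved by over 1.5 times, beside those given with the genes, ran from -0.246 to -0.096 (Aldoa), -0.227 to -0.080 (Aldoc), -0.233 to -0.116 (Tpi1), -0.135 to -0.024 (Pgk1), 0.029 to 0.101 (Slc16a3), -0.113 to -0.015 (Kdm3a) and -0.222 to -0.094 (Car9). Without both arrays numbered 1 the enzyme median was -0.056, and Pfkp stood at -0.050, Pgk1 at 0.006, Pgam1 at 0.017, Ldha at 0.026, Pfkfb3 at 0.032 and Egln1 at 0.107.

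An alternative added after seeing the data left out the 3 arrays of lowest transferrin receptor 5' minus 3' signal. The lone untethered array was assumed to vary like the tethered pair. The enzyme median was -0.039 and that of the other hypoxia response genes 0.0002, beside -0.036 over all probe sets tested. The sign changed for Pfkp (-0.001), Pfkm (-0.014), Pgk1 (0.009), Egln1 (0.110), Egln3 (0.011), Bnip3 (0.102), P4ha2 (0.013), Ero1l (0.117) and Kdm3a (0.044). Of the genes that kept their sign, some grew, among them Adm (-0.961), Hif1a (-0.294) and Aldoc (-0.208). Others shrank, among them Pdk1 (-0.022) and Pfkl (-0.037). The cause of these changes was not tested.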
